A study of Homo sapiens with 4 samples.

Results

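Metallothioneins and zinc export genes were examined in 4 RNA-seq libraries labelled HepG2, the name of a human liver tumour line used as a hepatocyte model. Most hepatocyte markers were near 0 in these libraries (values below), which goes against that label, so the cells are called by it only as a label. The set was made of 5 metallothionein genes (MT1E, MT1F, MT1G, MT1X and MT2A), the zinc-sensing transcription factor gene MTF1 and the zinc exporter gene SLC30A1. Members were found by their Entrez Gene identifiers among the 17961 genes listed in either pair of tables. Of the 7 genes sought, 6 had an entry, and MT1G is not analysed here. MT1X was selected on its fold change under ING5 siRNA in these libraries, so its values in that pair are a description, with no test. One library came from cells transfected with an empty vector and another from cells transfected with a FLAG-tagged JFK plasmid, JFK being an older name of the F-box gene FBXO42. In the remaining pair the cells had received either control siRNA or ING5 siRNA, directed at a subunit of histone acetyltransferase complexes. The labels give no time after transfection, and every group held 1 library, so no difference has a replicate check. Intervals below are exact 95% Clopper-Pearson intervals, except those for ratios between members within a library. Those are exact conditional 95% intervals of an odds ratio. All of them cover counting error only.

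Metallothioneins are small intracellular proteins, extremely rich in cysteine, that bind zinc and copper and buffer cadmium. When free zinc rises, MTF1 binds metal response elements in front of the metallothionein genes and of SLC30A1 and raises their transcription. SLC30A1, also called ZnT1, carries zinc out of the cell across the plasma membrane, while the ZIP transporters of the SLC39 family carry it in. The liver is a main site of metallothionein synthesis, and glucocorticoids and interleukin-6 signalling through STAT3 are also known inducers there.

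The coding sequences are printed because their likeness bears on every count that follows. The 5 metallothionein genes lie in a cluster on chromosome 16, where the GENCODE v29 annotation of GRCh38 has 16 genes and pseudogenes of the list within 119 kb (chr16:56565049-56684196). MT2A occupies chr16:56608199-56609497, MT1E chr16:56625475-56627112, MT1F chr16:56657694-56660698 and MT1X chr16:56682424-56684196, all on the plus strand and each with 3 exons in the transcript used. Each coding sequence has 183 bases before the stop codon, which is 61 codons, and 20 of these are TGC or TGT, the codons for cysteine. These codons are in capitals below, in the coding sequences of GENCODE v29 for the genes with the most reads.
MT1X: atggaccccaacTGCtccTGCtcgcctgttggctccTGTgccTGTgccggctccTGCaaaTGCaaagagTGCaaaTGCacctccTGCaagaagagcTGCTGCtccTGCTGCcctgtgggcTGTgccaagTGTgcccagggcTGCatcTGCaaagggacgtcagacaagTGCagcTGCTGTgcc
MT2A: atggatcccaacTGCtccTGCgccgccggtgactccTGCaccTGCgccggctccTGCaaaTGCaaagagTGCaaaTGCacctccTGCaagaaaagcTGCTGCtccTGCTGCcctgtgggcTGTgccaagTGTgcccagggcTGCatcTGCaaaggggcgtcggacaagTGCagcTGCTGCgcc
MT1E: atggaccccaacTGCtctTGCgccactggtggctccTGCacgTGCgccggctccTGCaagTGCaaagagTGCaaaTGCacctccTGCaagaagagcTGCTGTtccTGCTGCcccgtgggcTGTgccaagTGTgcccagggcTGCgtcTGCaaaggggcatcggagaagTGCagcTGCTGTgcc
MT1X and MT2A were identical at 169 of 183 coding bases (92.3%), as were MT1E and MT2A, and MT1X and MT1E were identical at 166. Of the 134 windows of 50 bases in the MT1X coding sequence, 59 (44.0%) also stood in a transcript of another metallothionein gene, with a longest shared run of 96 bases. The shares were 22.4% for MT1E, 17.2% for MT1F and 11.9% for MT2A. Reads from such stretches can be divided or dropped by a counter, so the split between members is uncertain. MT1X, MT2A and MT1F had counts that were not whole in the vector pair, and all members had whole counts in the siRNA pair.

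The bases in front of the start sites of MT1X, MT2A and SLC30A1 are shown because metal response elements are the known link between MTF1 and these genes. The sequences are the 250 bases upstream of the RefSeq start on GRCh38.p14, and 4 of the 7 members matched the promoter table. Capitals mark the core of the metal response element, searched as TGCACNC or TGCGCNC on both strands, a core on the reverse strand being shown as its reverse complement.
MT1X (chr16:56682220-56682469, plus strand): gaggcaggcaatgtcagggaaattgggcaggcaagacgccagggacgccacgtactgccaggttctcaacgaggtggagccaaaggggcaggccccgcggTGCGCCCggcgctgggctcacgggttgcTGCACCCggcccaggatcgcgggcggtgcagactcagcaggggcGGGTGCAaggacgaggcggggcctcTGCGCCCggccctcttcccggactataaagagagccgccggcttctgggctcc
MT2A (chr16:56608334-56608583, plus strand): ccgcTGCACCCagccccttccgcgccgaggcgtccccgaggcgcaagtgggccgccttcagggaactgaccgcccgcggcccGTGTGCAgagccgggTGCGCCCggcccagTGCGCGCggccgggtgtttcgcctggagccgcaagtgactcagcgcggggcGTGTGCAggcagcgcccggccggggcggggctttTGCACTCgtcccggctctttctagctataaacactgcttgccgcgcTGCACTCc
SLC30A1 (chr1:211579162-211579411, minus strand): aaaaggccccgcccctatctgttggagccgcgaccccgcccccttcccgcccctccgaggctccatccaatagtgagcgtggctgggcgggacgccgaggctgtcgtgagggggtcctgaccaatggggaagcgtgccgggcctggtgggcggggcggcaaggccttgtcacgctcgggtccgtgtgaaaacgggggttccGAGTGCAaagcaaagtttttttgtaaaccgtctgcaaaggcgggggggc
MT2A had 7 cores in this window, 5 forward and 2 reverse, and MT1X had 4, of which 3 were forward. SLC30A1 had 1, on the reverse strand, and MTF1 had 0 (chr1:37859593-37859842, minus strand). Among 35116 RefSeq promoters cut to the same length, 24.8% held at least 1 core, 0.37% at least 4 and 0.0313% at least 7. For SLC30A1 the RefSeq start lies 419 bases outside the 5′ end of the gene in GENCODE v29, and the bases after it were not in a GENCODE transcript, so its window is not the one next to the GENCODE start. The RefSeq start of MT2A lies 385 bases inside the GENCODE gene, and that of MT1X 46 bases inside. A match describes the letters only, and a window without one says nothing about binding elsewhere.

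**Figure D1:**
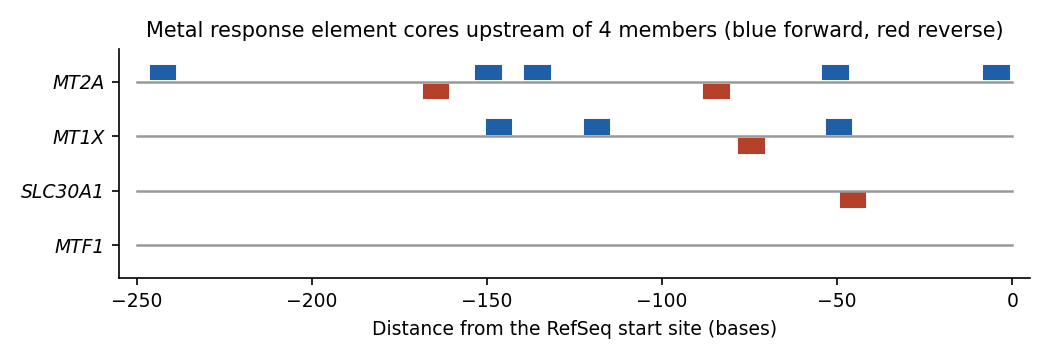
Positions of the metal response element cores in the 250 bases upstream of the RefSeq start of MT2A, MT1X, SLC30A1 and MTF1. The x axis is the distance from the start in bases, blue boxes above the line are forward matches and red boxes below it are reverse matches. MT2A has 7 boxes, MT1X has 4, SLC30A1 has 1 and MTF1 has 0.

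Reads assigned to genes came to 7178233 in the vector library, 7236486 in the library labelled JFK, 9196979 in control siRNA and 9030075 in ING5 siRNA. ING5 had 81 counts under its siRNA against 144 (log2 fold −0.81, interval −1.23 to −0.41). For FBXO42, 115 counts in the library labelled JFK faced 116 for vector (0.01, interval −0.37 to 0.40), so that library is named by its label throughout. Of 11 hepatocyte markers, 3 had at least 20 counts in each library (HNF4A, VTN and RBP4), and the others were at or near 0. ALB, TTR and TF, for albumin, transthyretin and transferrin, had no entry, AFP and APOB had 0 to 1 counts, APOA1 0 to 2, SERPINA1 3 to 7 and FGB 7 to 15.4. The summed hepatocyte markers came to 315 and 380 CPM (each count scaled to its library's total) in vector and the library labelled JFK and to 54.4 and 71.5 in control and ING5 siRNA, most of it VTN. Fibroblast markers summed to 74.3 to 91.1 CPM. Endothelial markers summed in the same order to 145 and 164 CPM in the vector pair and to 26.3 and 12.2 in the siRNA pair, most of it CDH5, with 995, 1132, 224 and 87 counts. Leukocyte markers summed to 17.8, 11.5, 1.63 and 1.99 CPM, most of it LYZ. The hepatocyte, endothelial and leukocyte sums, led by VTN, CDH5 and LYZ, were thus all higher in both libraries of the vector pair than in either siRNA library. Other markers did not all follow. In the same order PECAM1 had 42.78, 41.32, 16 and 21 counts, HNF4A 51, 73, 75 and 91 and RBP4 34, 61, 34 and 54. The sums thus do not give the level of a cell type, and the part of these markers in the results was not tested.

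MT2A, the most abundant metallothionein, supplied most metallothionein reads everywhere. It had 968.01 expected counts in vector, 698.72 in the library labelled JFK, 192 in control siRNA and 262 in ING5 siRNA. In CPM these are 135, 96.6, 20.9 and 29.0, so both libraries of the vector pair stood above both of the siRNA pair. MT1E, a broadly expressed MT1 isoform, had 108 and 68 counts in the vector pair and only 2 and 4 in the siRNA pair. MT1X, another MT1 isoform, had 63.6, 68.25, 13 and 47 in the same order, or 8.86, 9.43, 1.41 and 5.20 CPM. Control siRNA was the lowest of the 4, and ING5 siRNA lay between it and the vector pair. MT1X was chosen on the counts of the siRNA pair, so this order rests in part on that choice. MT1F was close to the detection floor, with 5.39, 1.03, 1 and 4 counts, where 3 reads correspond to 0.326 to 0.418 CPM.

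The exporter gene SLC30A1 had 1124 counts in vector, 994 in the library labelled JFK, 582 in control siRNA and 473 in ING5 siRNA. MTF1 varied least, with 298.2, 264.16, 277 and 266 counts, between 29.5 and 41.5 CPM. On the deposited scale per length, MT2A stood highest in vector at 308 FPKM, SLC30A1 followed at 77.0, then MT1E at 30.6, MT1X at 20.2, MTF1 at 5.14 and MT1F at 1.76. In control siRNA the deposited RPKM put MT2A at 44.8, SLC30A1 at 31.1, MTF1 at 3.77 and MT1X at 3.02, with MT1E at 0.419 and MT1F at 0.238. MT1E thus stood above MT1X and MTF1 per length in vector and below both in control siRNA.

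**Figure D2:**
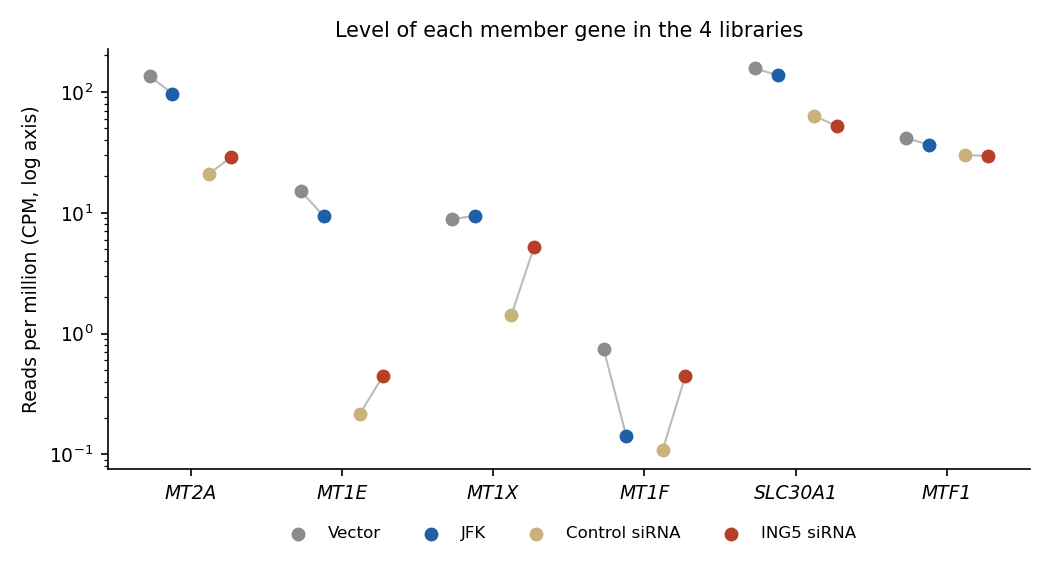
Level of the 6 member genes with an entry, in CPM on a log axis, 1 point per library. Grey lines join the libraries of a pair. MT2A, MT1E, MT1X and SLC30A1 lie higher in both libraries of the vector pair than in either siRNA library, and MTF1 lies between 29.5 and 41.5 CPM throughout.

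The control libraries of the pairs were set side by side, although their tables were counted and scaled separately and no test was made across them. The vector level of MT2A was 6.46 times that in control siRNA by CPM (interval 5.53 to 7.58), that of MT1X 6.27 times (3.44 to 12.5) and that of SLC30A1 2.47 times (2.24 to 2.74). The control siRNA count of MT1X is part of the fold on which MT1X was chosen, so its ratio rests on that choice too. For MT1E the ratio was 69.2, with an interval of 18.7 to 579 because control siRNA had 2 reads. MTF1 stood 1.38 times higher in vector (1.17 to 1.63). Of 12015 genes compared, 21.0% were at least 2-fold lower in control siRNA and 6.72% at least 4-fold lower. The listed lengths of the metallothionein genes are 456 to 519 bases, and short genes as a class also stood higher in vector: the median ratio was 1.59 for 98 genes of at most 600 bases, of which 18 (18.4%) were at least 4-fold lower in control siRNA, against 1.07 for all genes. The endothelial, leukocyte and hepatocyte marker sums, led by CDH5, LYZ and VTN, also stood higher in vector. The part of gene length and of these markers in the ratios was not tested.

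The library labelled JFK was compared with vector to see which transcripts differ with the plasmid. Metallothionein reads stood lower there, led by MT2A at 0.734 times the vector level (log2 fold −0.45, interval −0.59 to −0.30) and MT1E at 0.642 times (−0.64, interval −1.10 to −0.19). The exporter gene SLC30A1 was slightly lower, at 0.899 times (−0.15, interval −0.28 to −0.03). MT1X stood at 1.09 times vector, with an interval of 0.757 to 1.54 that overlaps the MT2A interval of 0.665 to 0.810. MTF1 stood at 0.901 times (0.760 to 1.07), and its interval includes no difference. Summed over all listed metallothionein genes, 1161.6 reads in vector faced 847.59 in the library labelled JFK (−0.43, interval −0.56 to −0.30). The leukocyte marker sum was also lower there, at 11.5 against 17.8 CPM, most of it LYZ with 72.19 counts against 114.98. PTPRC had 7 counts against 8, and CD14 had 4 in each library. The hepatocyte, endothelial and fibroblast sums went the other way, at 380, 164 and 77.7 CPM against 315, 145 and 74.3. The part of these markers was not tested.

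Of the 5 members with a mean of at least 20 normalised counts, 3 had an interval wholly below 0 and 0 had one wholly above 0. Over all 12105 genes measured in this pair, 11.2% had an interval wholly below 0 and 14.3% wholly above. MT1E, which was lower, was the member at least 1.5-fold apart in either direction. Of all genes measured, 3.55% were that far apart, and 2.06% of all genes measured were that far lower. The median of the 5 was −0.15, against 0.00 for all genes measured. MT1F had 1.03 expected counts against 5.39, a ratio of 0.263 whose interval of 0.0043 to 1.82 spans both directions.

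The siRNA pair was compared to see which transcripts differ with ING5 siRNA. Metallothionein reads stood higher under ING5 siRNA while the exporter gene stood lower. MT1X had 47 counts against 13, a fold of 3.56 (log2 fold 1.83, interval 0.96 to 2.88), the value for which it was chosen. MT2A had 262 counts against 192, a fold of 1.38 (0.46, interval 0.19 to 0.74). SLC30A1 had 473 against 582, a fold of 0.822 (−0.28, interval −0.46 to −0.11). MTF1 had 266 against 277 (−0.04, interval −0.29 to 0.21), so no difference in the transcript of the zinc sensor was detectable at this depth. Endothelial markers summed to 12.2 CPM under ING5 siRNA against 26.3, most of it CDH5 with 87 counts against 224. PECAM1 went the other way, with 21 against 16. The hepatocyte sum was higher, at 71.5 against 54.4 CPM, most of it VTN with 489 counts against 376. Leukocyte markers summed to 1.99 against 1.63 CPM and fibroblast markers to 88.4 against 91.1. The part of these markers in the differences was not tested.

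As background to the value for which MT1X was chosen, among the 11634 genes measured, a level 3-fold higher or more was seen in 0.120% and 2-fold higher or more in 0.765%. MT1X was also the member at least 1.5-fold higher, where 4.01% of all genes were, and 0 members were at least 1.5-fold lower, where 4.40% were. Apart from MT1X, 3 members were measured. MT2A was the 1 of these with an interval wholly above 0, as 18.3% of all genes had, and SLC30A1 the 1 with an interval wholly below 0, as 20.6% had. With 13 reads in control siRNA, the MT1X interval runs from 1.95-fold to 7.37-fold. MT1E with 4 reads against 2 (ratio 1.82, interval 0.290 to 22.4) and MT1F with 4 against 1 (3.03, interval 0.400 to 199) were too shallow to give a direction. The metallothionein sum was 318 against 210 reads (0.61, interval 0.36 to 0.87), and it includes MT1X.

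**Figure D3:**
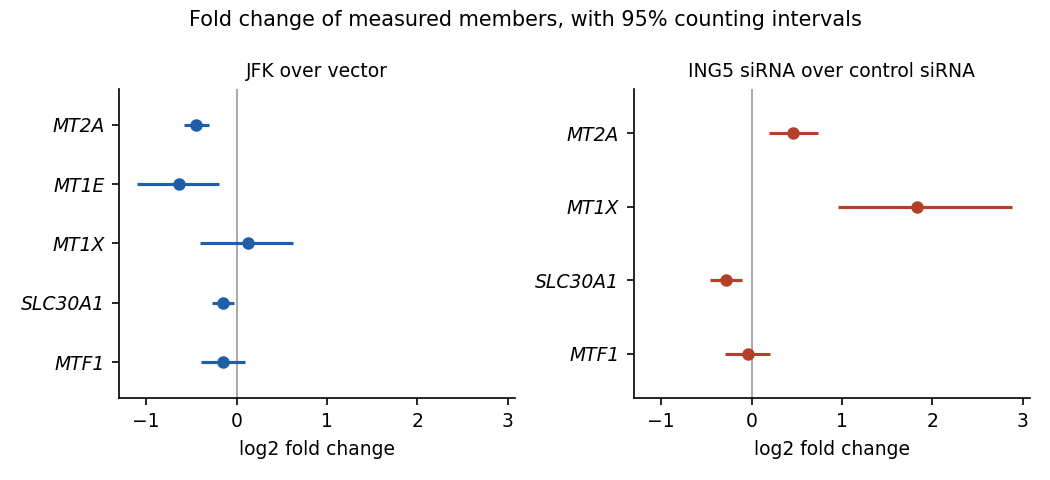
Log2 fold changes of the members with a mean of at least 20 normalised counts, library labelled JFK over vector on the left and ING5 siRNA over control siRNA on the right. Bars are exact 95% counting intervals. MT2A lies at −0.45 on the left and at 0.46 on the right, SLC30A1 lies below 0 in both, and MT1X reaches 1.83 on the right.

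The 2 pairs share no library. MT2A was lower in the library labelled JFK and higher under ING5 siRNA, both with intervals clear of 0. SLC30A1 was lower in both, by less than the 1.5-fold threshold. MTF1 had intervals that include 0 in both. MT1X was above 0 in both, with an interval that includes 0 in the library labelled JFK.

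Ratios between members within a library need no scaling between libraries. For every 100 MT2A reads there were 6.57 MT1X reads in vector, 9.77 in the library labelled JFK, 6.77 in control siRNA and 17.9 in ING5 siRNA. The control libraries of the pairs were thus close to each other in this ratio, although their MT2A levels stood 6.46-fold apart and their tables were counted separately. The control siRNA ratio holds an MT1X count on which the choice of MT1X was made. The ratio was 1.49 times higher in the library labelled JFK than in vector (interval 1.02 to 2.13) and 2.65 times higher in ING5 siRNA than in control siRNA (1.36 to 5.48), the latter resting on the choice of MT1X. MT1E relative to MT2A was 11.2 reads per 100 in vector against 9.73 in the library labelled JFK, a ratio of 0.872 with an interval of 0.624 to 1.21. In the siRNA pair MT1E had 1.04 and 1.53 reads per 100 of MT2A.

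As a share of all metallothionein reads, MT2A took 83.3% in vector (exact interval 81.0 to 85.4), 82.4% in the library labelled JFK, 91.4% in control siRNA (86.8 to 94.8) and 82.4% in ING5 siRNA (77.7 to 86.4). MT1X took 5.48% (4.27 to 6.98), 8.05% (6.28 to 10.1), 6.19% (3.34 to 10.4) and 14.8% (11.1 to 19.2) in the same order. In the siRNA pair the shares of MT1X and MT2A both rest on the choice of MT1X, whose reads are part of the total. MT1E took 9.30% and 8.02% in the vector pair but 0.952% and 1.26% in the siRNA pair, where the intervals do not reach those of the vector pair. The MT2A to SLC30A1 ratio differed in opposite directions, standing at 0.816 times vector in the library labelled JFK (0.716 to 0.931) and at 1.68 times control siRNA in ING5 siRNA (1.34 to 2.11). SLC30A1 relative to MTF1 changed by factors of 0.998 (0.825 to 1.21) and 0.846 (0.684 to 1.05).

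**Figure D4:**
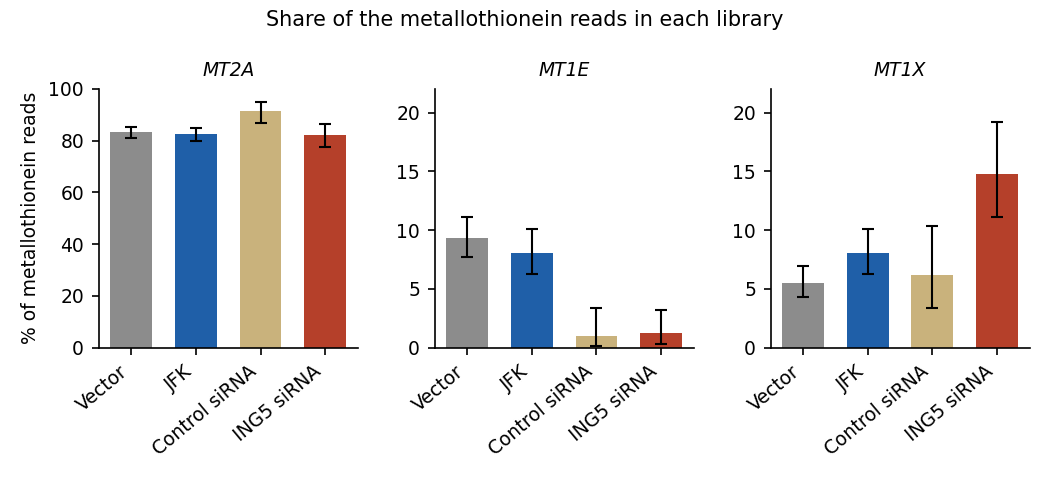
Share of the metallothionein reads of each library taken by MT2A, MT1E and MT1X, in percent, with exact 95% intervals as bars. The MT2A axis runs to 100 and the others to 22. MT1E stands at 9.30% in vector and at 0.952% in control siRNA. MT1X is highest in ING5 siRNA at 14.8%, in the pair on which it was chosen.

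Of 19 metallothionein genes and pseudogenes sought, 7 had an entry. Beyond the members these were MT4, a form typical of stratified epithelium, with 7 counts in each library of the vector pair, and the pseudogenes MT1IP, with 9.6, 4.59, 1 and 1 counts, and MT1DP, with 1 and 0 in control and ING5 siRNA. All 3 lay below a mean of 20 counts, so the metallothionein signal was carried by MT2A, MT1X and, in the vector pair, MT1E.

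In the library labelled JFK 0 zinc transporter genes were 1.5-fold apart, where 3.55% of all genes were. Under ING5 siRNA SLC30A4 and SLC39A13 were 1.5-fold higher, where 4.01% of all genes were, and 0 were 1.5-fold lower. Of the ZnT family, which exports zinc or loads it into vesicles, 6 genes were measured in each pair. In the library labelled JFK their median was −0.05, from SLC30A6 (−0.17) and SLC30A1 (−0.15) to SLC30A5 (0.01) and SLC30A7 (0.08), and of these 6 intervals only that of SLC30A1 was clear of 0, lying below it as 11.2% of all genes did. Under ING5 siRNA their median was 0.06, with 2 intervals above 0 and 2 below, where 18.3% and 20.6% of all genes had such intervals. SLC30A6, which works in the secretory pathway, had 390 counts against 523 (−0.41, interval −0.60 to −0.22), and its interval overlaps that of SLC30A1. SLC30A7, a Golgi transporter, stood at 0.28 (0.09 to 0.47) and SLC30A9 at 0.23 (0.10 to 0.37). SLC30A4 had 47 counts against 30, a fold of 1.57 whose interval on the log2 scale is −0.03 to 1.38.

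ZIP genes, which bring zinc into the cytosol, had a median of 0.05 over 11 measured genes in the library labelled JFK, and of 0.09 over 10 under ING5 siRNA. In the first comparison 3 had intervals above 0 and 4 below, where 14.3% and 11.2% of all genes had such intervals. SLC39A13 was highest, with 122 counts against 89 (0.48, interval 0.07 to 0.89), followed by SLC39A3 at 0.21. SLC39A9 (−0.33, interval −0.49 to −0.18) and SLC39A10 (−0.29, interval −0.47 to −0.12) were lowest. The counts of SLC39A9 differ from those its deposited FPKM implies, and the FPKM was 15.3 against 22.1. Under ING5 siRNA 4 intervals lay above 0 and 0 below, against 18.3% and 20.6% of all genes. SLC39A13, a transporter of the secretory pathway, had 54 counts against 33 (0.72, interval 0.08 to 1.40). SLC39A7, which releases zinc from the endoplasmic reticulum, had 1716 against 1285 (0.43, interval 0.33 to 0.54). SLC39A1 and SLC39A3 were lowest at −0.07 and −0.03, with intervals that include 0.

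Copper handling genes were read because metallothioneins bind copper as well. Of 11 measured in the library labelled JFK the median was −0.02, and the copper-export ATPase gene ATP7B had 29 counts against 45 (−0.60, interval −1.34 to 0.10). SLC31A2 was next lowest at −0.20, while SCO1, a copper chaperone gene of cytochrome oxidase assembly, at 0.22 and SOD1 at 0.11 were highest. Under ING5 siRNA 10 were measured with a median of 0.17, and the transporter gene SLC31A2 had 51 counts against 34 (0.59, interval −0.05 to 1.27). ATP7B, at 50 counts against 36, stood at 0.48 (−0.16 to 1.15), and COX17 (−0.27) and SOD1 (−0.09) were lowest. In the library labelled JFK 1 interval lay above 0, that of SCO1, and 0 below, where 14.3% and 11.2% of all genes had such intervals. Under ING5 siRNA the interval of the copper importer gene SLC31A1 lay above 0 (0.19, interval 0.06 to 0.33) and that of SOD1 below (−0.18 to −0.0071), where the shares of all genes were 18.3% and 20.6%.

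Iron handling genes all lay above 0 under ING5 siRNA, as did 5654 of the 11634 genes measured. The iron median was 0.35 over 7 genes, against −0.01 for all genes measured, and 0 iron genes reached 1.5-fold. Of the 7 intervals 5 lay wholly above 0, as did 18.3% of those of all genes. Deep counts give narrow intervals, and the iron genes had between 124 (HMOX1) and 36855 (FTH1, the ferritin heavy chain) in control siRNA. SLC11A2, the iron importer DMT1, stood at 0.41 (0.30 to 0.52), and FTL, the ferritin light chain, at 0.38 (0.34 to 0.43). IREB2 at 0.04 and ACO1 at 0.12, for the iron regulatory proteins, were lowest. In the library labelled JFK the median was −0.10, with 3 intervals above 0 and 3 below, where 14.3% and 11.2% of all genes had such intervals. HMOX1, for haem oxygenase, had 170 counts against 126 (0.45, interval 0.12 to 0.80) and FTL stood at 0.19, while SLC11A2 (−0.17) and ACO1 (−0.16) were lowest.

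Lists linked to other known inducers were read in the same way. The glucocorticoid-induced list also holds NR3C1, the gene of the glucocorticoid receptor itself. Of this list, 7 were measured in the library labelled JFK (median 0.08) and 6 under ING5 siRNA (median 0.00), and 0 reached 1.5-fold. In the former 2 intervals lay above 0 and 2 below, where 14.3% and 11.2% of all genes had such intervals. In the latter 1 lay above and 3 below, where the shares of all genes were 18.3% and 20.6%. FKBP5, a sensitive glucocorticoid target, had 81.2 expected counts against 120.72 in the first (−0.55, interval −0.98 to −0.14) and 194 against 180 counts in the second (0.12, interval −0.18 to 0.42). NR3C1 was lower in both, at −0.47 (−0.63 to −0.31) and −0.49 (−0.61 to −0.38), and is among the genes counted with intervals below 0 in each pair. In the ING5 siRNA table its count differs from the one its RPKM implies, and the deposited RPKM was 14.8 against 21.3. TSC22D3 under ING5 siRNA was next lowest at −0.33. PER1 and DUSP1 were highest in the library labelled JFK (0.23 and 0.21), and PER1 and SGK1 under ING5 siRNA (0.17 and 0.16).

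Of the STAT3 acute-phase list, 5 genes were measured in the library labelled JFK (median 0.22) and 3 under ING5 siRNA (median 0.30). In the former 4 genes lay above 0, as did 6112 of the 12105 genes measured. Of the 5 intervals 2 lay above 0 and 0 below, where 14.3% and 11.2% of all genes had such intervals. SAA2, a serum amyloid gene with a near-identical neighbour, stood exactly at the threshold with 25.49 expected counts against 17.11 (0.59, interval −0.37 to 1.56), and SAA1 at 0.51. STAT3 itself (−0.04) and its feedback inhibitor gene SOCS3 (0.00) were lowest there. Under ING5 siRNA SOCS3 had 199 counts against 144 (0.48, interval 0.17 to 0.80) and STAT3 3661 against 3002 (0.30, interval 0.23 to 0.37), while LCN2, for lipocalin-2, had 238 against 340 (−0.50, interval −0.74 to −0.26). SAA1, below the mean of 20 counts in that pair, had 21 against 2, a ratio of 8.69 whose interval on the log2 scale is 1.38 to 6.55; it is named here after its values were seen, and reads can be divided between it and SAA2. Over all lists together, 1 of 50 measured genes was at least 1.5-fold higher and 2 lower in the library labelled JFK, where 3.55% of all genes were that far apart (181 higher and 249 lower of 12105). Under ING5 siRNA 4 of 44 were higher and 0 lower, where 4.01% and 4.40% of all genes were. MT1X is among the 4 by construction, as it was chosen for its rise in this pair, and the others were SLC30A4, SLC39A13 and SLC31A2. Changes in the number of cells of a kind and in RNA per cell cannot be told apart in these bulk libraries.

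**Figure D5:**
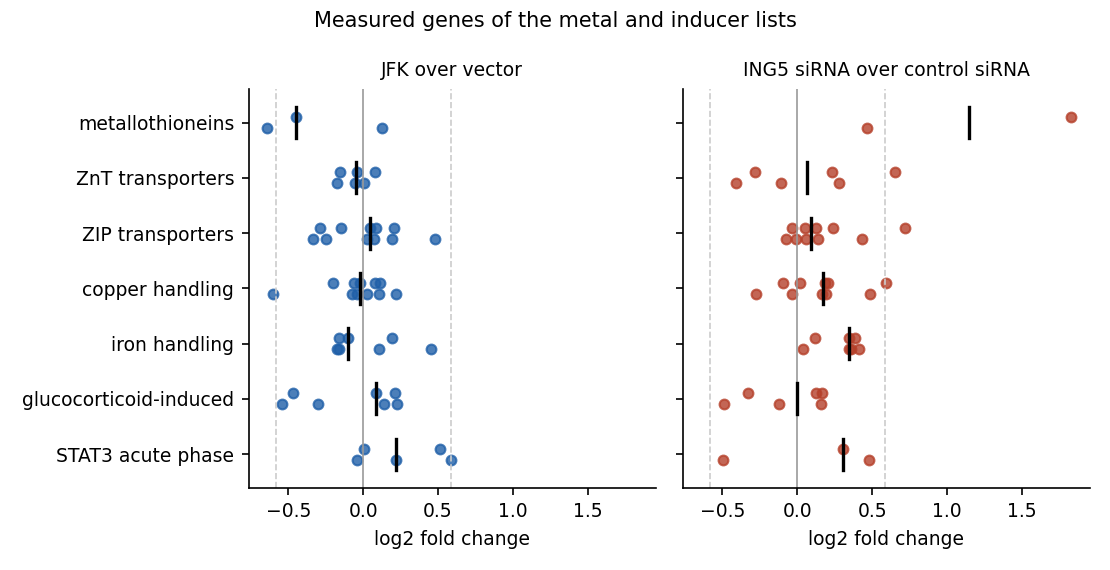
Log2 fold change of each measured gene of 7 lists, library labelled JFK over vector on the left and ING5 siRNA over control siRNA on the right. Each point is 1 gene, black bars are list medians and dashed lines mark 1.5-fold. Iron genes all lie above 0 on the right, with a median of 0.35, and the farthest point is MT1X at 1.83.

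The genes whose pair of fold changes was nearest to that of MT1X were sought among 8341 genes with a mean of at least 100 normalised counts in both pairs. Likeness was the straight-line distance between the log2 folds of the 2 comparisons, so it rests on 4 libraries. The distance also rests on the ING5 siRNA fold for which MT1X was chosen, so genes near it stand high in that pair by construction. Among the nearest, OLR1, a receptor for oxidised LDL, lay at a distance of 0.34, with log2 folds of 0.04 for the vector pair and 1.5 for the siRNA pair. PDGFB, a growth factor gene, lay at 0.36, RCN3 at 0.50 and CCN1, a secreted matrix protein gene, at 0.52. MT1X had 13 to 68.25 counts and a wider counting interval than any of these 4. Under ING5 siRNA that interval ran from 0.96 to 2.88, which is wider than the distances given.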

How the data were processed

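Trizol-extracted RNA of cells labelled HepG2 gave 4 Illumina libraries, per the labels. FastQC, fastp, STAR and DESeq2 and the builds GRCh37 and hg19 are named in the submitters' processing notes; versions, roles and the read counter are not named in the sources used here. Tables of the vector pair hold deposited expected counts (68.6% and 69.0% whole) and deposited FPKM, and the siRNA tables deposited counts and deposited RPKM, per the file headers. A value of 0.01 stands for 0 in the deposited FPKM and RPKM columns.

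Entrez identifiers were matched to RefSeq symbols of GRCh38.p14; 16898 of 17008 and 16767 of 16856 matched, and 2 identifiers listed more than once were left out. Sequences come from RefSeq and GENCODE v29 on GRCh38, another build than that of the tables, and no count depends on them. Counts were scaled per pair by TMM (trims 0.3 and 0.05) to the mean library size, and 0.5 was added before the log2 ratio. Expected counts were rounded for intervals only. Measured means a mean of at least 20 normalised counts. With 1 library per group there is no test and no p-value. The method was tested on simulated data that held counting error only, with no spread between libraries and no reads divided between genes. A floor is 3 counts per library. Members and lists were chosen with earlier results of these data known. Named genes are the members, every listed metallothionein gene, the 2 highest and 2 lowest measured genes of each other list and all at least 1.5-fold apart, ING5 and FBXO42, and the 5 genes nearest to MT1X, of which 1 is not reported here; hepatocyte, fibroblast, leukocyte and endothelial markers were summed. Python 3.11.15, numpy 2.4.6, pandas 2.3.3, scipy 1.17.1 and matplotlib 3.10.9 were used. Alternatives were other scalings, another added count, other filters and the deposited RPKM or FPKM.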

Additional observations from a re-analysis of the deposited data

How the results depend on the processing

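Member folds were recomputed under 7 alternatives each, with median-of-ratios, total-count and other scalings, 5 added, and the deposited FPKM or RPKM. Of 154 alternative values over 34 results, 143 stayed within the counting interval or within 1.5 times the count, 11 moved beyond it and 0 changed sign against a called direction. MT1X under ING5 siRNA ran from 1.54 to 1.87, MT2A from 0.45 to 0.48 and SLC30A1 from −0.30 to −0.27. In the library labelled JFK, MT2A ran from −0.49 to −0.44, MT1E from −0.69 to −0.61, SLC30A1 from −0.20 to −0.15 and MT1X from 0.08 to 0.12. The values that moved were the small counts of listed genes at least 1.5-fold apart. With no filter on low counts they became 3 higher and 6 lower in the library labelled JFK, and 10 higher and 4 lower under ING5 siRNA. At a mean of at least 100 they became 0 higher and 0 lower in the former and 0 higher in the latter. In the library labelled JFK, median-of-ratios scaling, total-count scaling and 5 added each gave 0 higher, and 5 added gave 1 lower. No paired analysis was possible because each group holds 1 library, and for the same reason no library could be left out. Depth limits MT1E in the siRNA pair and MT1F in both.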
